A study of Mus musculus with 2 samples.

Results

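The genes described here are 9 mouse genes of secreted growth factor systems: the platelet-derived growth factor (PDGF) ligands Pdgfa and Pdgfb, the PDGF receptors Pdgfra and Pdgfrb, the vascular endothelial growth factor (VEGF) family ligands Vegfa, Vegfb and Pgf, the bone morphogenetic protein (BMP) ligand Bmp7 and the neurturin gene Nrtn. They were taken by gene symbol from the array platform's annotation, in which 10208 genes have a named probe, and each of the 9 has 1 probe. The set was put together with the differences between these arrays in view, so its differences are given as a description and not as a test.

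The cells were 1F9, a mouse thymoma line of E2A-deficient origin, so that neither of the E2A gene products, the helix-loop-helix factors E12 and E47, is made from the cells' own gene. In the E47-ER group the cells carried a retrovirus for E47 fused to an oestrogen receptor part, and in the bHLH-ER group a retrovirus for an otherwise like fusion that keeps the basic helix-loop-helix region of E47 and lacks its N-terminal activation domain. Both groups share the E2A deficiency, the human CD25 marker encoded by both viruses, 6 hours of 4-hydroxytamoxifen begun 1 day after infection, and magnetic selection for human CD25. Each construct was measured on 1 single-colour (Cy3) oligonucleotide array, so all values come from 1 line, no difference has a replicate check, and no p-value or standard error can be given. The constructs were told apart by the sample titles, because the longer descriptions name the E47 fusion for both.

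PDGF and VEGF family ligands are dimers that activate receptor tyrosine kinases on the cell surface. PDGF acts mainly on fibroblasts, pericytes and other mesenchymal cells, and VEGF mainly on endothelial cells. BMP7 belongs to the transforming growth factor beta superfamily and signals through serine/threonine kinase receptors to the SMAD1, SMAD5 and SMAD9 transcription factors. Neurturin is a ligand of the GDNF family, which binds a GFRA co-receptor and signals through the tyrosine kinase RET.

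With E47-ER, the ligand genes Nrtn, Pdgfa, Pgf and Bmp7 were between 2.30-fold and 3.81-fold higher than with bHLH-ER, the receptor gene Pdgfrb was 2.23-fold lower, and Vegfb was nearly equal. The probes of Pdgfb, Pdgfra and Vegfa were dim on both arrays. All folds were computed from log2 intensities centred on each array's median over 19621 probes with a positive value on both arrays. A gene counted as measured when its level, averaged over the arrays, was at or above the median probe, an intensity of about 1.02 on the E47-ER array and 1.03 on the bHLH-ER array. This left 6 of the 9 genes. Pdgfa came nearest to the limit from above, with a mean level 0.50 over it on the log2 scale, and Pdgfra nearest from below, 1.70 under it. With bHLH-ER the intensity of Pdgfa was 0.801, below the limit, so Pdgfa passed the filter through its E47-ER value and is counted below with that limit. The call was made at 2-fold in either direction. It marked 4 of the 6 measured members as higher, where 1.35% of the 5563 measured genes were higher, and 1 as lower, where 0.27% were lower. These shares are given for scale only, since the members were picked from the same contrast.

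**Figure D1:**
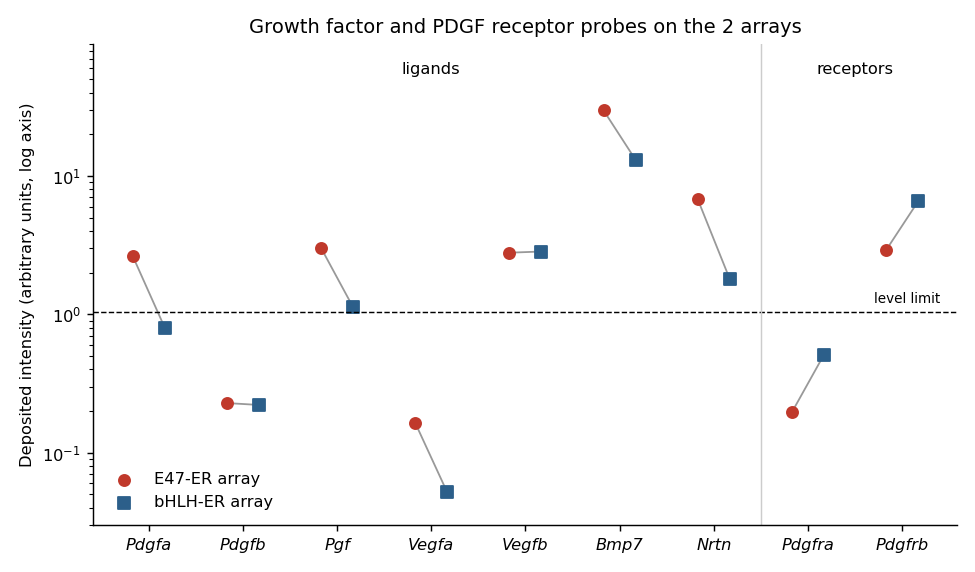
Deposited intensity (arbitrary units, log axis) of each probe on the E47-ER array (red circles) and the bHLH-ER array (blue squares), 1 array each, with ligands on the left and receptors on the right. The dashed line marks the level limit as an intensity on the bHLH-ER array, 1.03, which applies to the mean over both arrays. Nrtn, Pdgfa, Pgf and Bmp7 are higher with E47-ER, and Pdgfrb is lower. Pdgfa lies under the line with bHLH-ER, and Pdgfb, Vegfa and Pdgfra lie under it on both arrays.

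The scale of error within these arrays comes from 2 sources. Over 39 measured genes with several probes at or above the limit, the log2 differences of probes of one gene had a pooled SD of 0.21, which holds spot and probe error but no spread between cultures. The measured genes had a median log2 difference of 0.11, and 66.7% of them were above 0, so a gene at 0 lies a little below the middle. The spread also depends on level, and for each member it is given below as the robust SD (the scaled median absolute deviation) of the log2 differences of the 500 named genes nearest to it in mean level.

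The cell line label was checked with marker genes. All 10 T lineage markers with a named probe were measured, among them Cd3e, Cd3g, Thy1 and Rag1. Their intensities summed to 451 with E47-ER and 308 with bHLH-ER, sums that rest mostly on the brightest genes. Of the 10 genes, 8 had a log2 difference above 0, beside 66.7% of all measured genes. Of the same 10, 2 were 2-fold higher, Ptcra and, only just (2.02-fold), Rag1, beside 1.35% of all measured genes. The markers were not rechecked under other scalings. Gata3 went the other way, at 4.97 with E47-ER and 9.92 with bHLH-ER (log2 difference -0.98). So did Cd3e, at 16.4 with E47-ER and 23.1 with bHLH-ER (-0.47). Of 8 fibroblast and pericyte markers, 2 were measured (Tagln and Sparc), with sums of 7.09 with E47-ER and 6.38 with bHLH-ER, while the pericyte marker Rgs5 stood at 0.0974 with E47-ER and 0.121 with bHLH-ER. The fibroblast marker Dcn was at 0.0371 with E47-ER and 0.0158 with bHLH-ER. Of 7 endothelial markers 1 was measured, Pecam1, which leukocytes also express, with list sums of 3.70 with E47-ER and 5.04 with bHLH-ER. The endothelial cadherin gene Cdh5 was at 0.0123 with E47-ER and 0.0525 with bHLH-ER, and Emcn was at or below 0 with bHLH-ER. None of 5 megakaryocyte and platelet markers was measured, with sums of 0.613 with E47-ER and 0.401 with bHLH-ER. Of 9 myeloid markers 1 was measured, Itgam, with list sums of 2.81 with E47-ER and 2.17 with bHLH-ER. In RNA of a whole culture, fewer cells expressing a gene and less RNA per cell cannot be told apart.

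Nrtn (Entrez gene 18188), the neurturin gene, had an intensity of 6.77 on the E47-ER array and 1.79 on the bHLH-ER array, a 3.81-fold higher value. Both intensities were above the level limit. Its log2 difference of 1.93 was the 12th highest of 5563, and none of the 500 genes nearest in level reached it. Those neighbours had a robust SD of 0.28, and 2.2% of them were 2-fold higher.

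E47 binds E-boxes, DNA sites with the letters CANNTG, and prefers some inner bases over others. The promoter of Nrtn is shown because this gene had the largest difference of the set. It is the RefSeq window of the 250 bases before the transcript start (GRCm38.p6, chr17:56757549-56757798, minus strand), printed with each CANNTG in capitals.

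Nrtn: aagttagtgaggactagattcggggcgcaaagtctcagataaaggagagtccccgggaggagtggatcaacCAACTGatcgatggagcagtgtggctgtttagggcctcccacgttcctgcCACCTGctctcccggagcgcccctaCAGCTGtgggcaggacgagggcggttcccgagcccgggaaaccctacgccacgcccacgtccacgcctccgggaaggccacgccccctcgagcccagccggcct

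The window holds 3 such matches, which begin at positions -179, -129 and -104, where -1 is the base just before the start. The last of them is CAGCTG, a palindrome. The one before it is CACCTG, which was searched on both strands and so also as its reverse complement, CAGGTG on the printed strand. Among 32851 RefSeq windows of the same length, 66.2% hold at least 1 match to CANNTG on either strand. The palindrome is found in 13.0% of them and the other hexamer, in either orientation, in 17.2%, and each of these is also a match to the general motif. The matches describe letters and not bound sites.

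Neurturin's own receptors were dim on these arrays. Gfra2, its preferred co-receptor, stood at 0.0634 with E47-ER and 0.117 with bHLH-ER, and Ret at 0.680 with E47-ER and 0.872 with bHLH-ER, both under the level limit. Of the 7 other GDNF family genes with a named probe only Gfra4, a co-receptor of persephin, was measured, at 1.38 with E47-ER and 1.19 with bHLH-ER, a log2 difference of 0.22. Artn, the artemin ligand gene, was at 0.222 with E47-ER and 0.336 with bHLH-ER. Among the GDNF family genes on the array, only Nrtn and Gfra4 were thus above the level limit. Nrtn was past 2-fold, but it was chosen with its difference in view.

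Pdgfa (Entrez gene 18590), which encodes the PDGF A chain, had an intensity of 2.64 with E47-ER and 0.801 with bHLH-ER, a 3.33-fold higher value. The bHLH-ER intensity lay below the level limit, so the gene counted as measured through its E47-ER value. Its log2 difference of 1.73 was the 18th highest of 5563, and 2 of the 500 genes nearest in level reached it (robust SD 0.28, with 1.4% of them 2-fold higher). Neither of the RefSeq windows of Pdgfa (chr5:138994282-138994531 and chr5:138994945-138995194, both minus strand) contained CANNTG. Both windows lie inside the gene's RefSeq span, downstream of its outermost start.

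Pdgfb (Entrez gene 18591), the B chain gene, was at 0.228 with E47-ER and 0.221 with bHLH-ER. The arrays thus gave the same low value, with a log2 difference of 0.06. Among the other PDGF ligand genes, Pdgfc was measured at 11.5 with E47-ER and 7.25 with bHLH-ER, a log2 difference of 0.68 that stayed within 2-fold. Pdgfd, whose product activates mainly PDGFRB, was dim, at 0.170 with E47-ER and 0.154 with bHLH-ER.

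Pgf (Entrez gene 18654) encodes placental growth factor, a VEGF relative that binds the receptor FLT1 but not KDR. Its intensity was 3.02 with E47-ER and 1.13 with bHLH-ER, 2.71-fold higher, the bHLH-ER value lying close to the level limit. The log2 difference of 1.44 was the 25th highest of 5563, and 4 of the 500 genes nearest in level reached it (robust SD 0.26, with 2.2% of them 2-fold higher). Each of its RefSeq windows held 1 CANNTG, shown here with 10 bases on either side because Pgf was the VEGF family gene called higher.

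Pgf, chr12:85175983-85176232, minus strand: gagctcccacCAGCTGatcaccctcc
Pgf, chr12:85177314-85177563, minus strand: ccagaagagcCAGGTGcaaccttggc

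The first match begins at -92 and the second at -238 from their starts, and both windows lie inside the gene's RefSeq span.

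Vegfb (Entrez gene 22340), another ligand of FLT1, gave nearly the same value on both arrays, 2.79 with E47-ER and 2.84 with bHLH-ER. Both lay above the level limit, and the log2 difference was -0.01, beside a robust SD of 0.28 among the genes nearest in level. Its promoter window (GRCm38.p6, chr19:6987652-6987901, minus strand) is printed as the set's example of a measured ligand gene without a difference.

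Vegfb: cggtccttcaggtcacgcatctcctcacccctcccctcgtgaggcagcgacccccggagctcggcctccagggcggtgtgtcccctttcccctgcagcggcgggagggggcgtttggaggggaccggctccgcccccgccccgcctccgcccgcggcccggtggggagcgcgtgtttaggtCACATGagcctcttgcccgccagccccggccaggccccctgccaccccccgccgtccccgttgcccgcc

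It holds 1 match to the general motif, CACATG at -69, and none of the more specific hexamers named for Nrtn. Such hexamers were also found for a member under the level limit. Vegfa had CAGGTG at -186 and CACCTG at -178 in the window chr17:46025164-46025413, inside its RefSeq span, and no match in its other window. Pdgfra, also under the limit, had CATCTG at -182 in a window inside its RefSeq span. No window is given here for the called members Bmp7 and Pdgfrb. Whether the windows of called members differ from the others was not tested.

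Vegfa (Entrez gene 22339), the main angiogenic ligand and a target of the hypoxia-inducible factor HIF1, was dim, at 0.164 with E47-ER and 0.0516 with bHLH-ER. The ratio corresponds to 3.21-fold higher, but at this level differences were wide: of the 500 genes nearest in level, 9.8% were 2-fold higher and 16.0% were 2-fold lower, with a robust SD of 0.93. Its log2 difference was 1.68, and 0.28 when 0.5 was added to every intensity before taking log2. Without the level filter, 4.99% of 9942 named genes were 2-fold higher and 4.22% were 2-fold lower. Vegfa was therefore left uncalled.

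Of the VEGF receptor genes only Flt4 and the co-receptor gene Nrp1 were measured, and neither passed 2-fold. Over all measured genes 1.35% were 2-fold higher and 0.27% lower, so this is a usual outcome. Flt1 was at 0.105 with E47-ER and 0.0121 with bHLH-ER, and Kdr at 0.213 with E47-ER and 0.320 with bHLH-ER, all far under the level limit. Flt4, the receptor for VEGFC and VEGFD, was measured at 4.34 with E47-ER and 4.72 with bHLH-ER (log2 difference -0.11), and the co-receptor Nrp1 at 2.14 with E47-ER and 1.83 with bHLH-ER (0.24). Both remaining ligand genes of the family, Vegfc and Vegfd, were under the limit.

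Bmp7 (Entrez gene 12162) had an intensity of 29.8 with E47-ER and 13.1 with bHLH-ER, 2.30-fold higher, and both values were far above the level limit. It was the only member whose mean level also passed the 75th percentile of all probes. Its log2 difference of 1.20 was the 42nd highest of 5563, and 2 of the 500 genes nearest in level reached it. The spread at this level was the narrowest found for a member, with a robust SD of 0.22.

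None of the 9 other ligand genes of the BMP system list with a named probe was measured. Bmp2, for example, was at 0.126 with E47-ER and 0.141 with bHLH-ER, and Bmp4 at 0.0576 with E47-ER and 0.0874 with bHLH-ER. Of the BMP receptor genes 3 were measured and none passed 2-fold. Over all measured genes 1.35% were 2-fold higher and 0.27% lower, so none among so few is a usual outcome. Bmpr1b, a type I receptor, had a log2 difference of 0.09, Acvrl1 of -0.36 and the type II receptor Acvr2a of -0.43. Acvr2b, a type II receptor just under the level limit, was at 0.637 with E47-ER and 1.48 with bHLH-ER, a log2 difference of -1.20. The signal transducers Smad4 (-0.002) and Smad5 (0.37) and the secreted BMP modulator Twsg1 (-0.17) were within 2-fold. Over the 6 measured genes of the BMP system the median was -0.09, and 2 were above 0.

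Of the BMP response genes Id3 and Id2 were measured. Id3 was at 3.44 with E47-ER and 3.25 with bHLH-ER, a log2 difference of 0.09. Id2, which encodes an inhibitor of E proteins, was at 160 with E47-ER and 24.2 with bHLH-ER, a log2 difference of 2.73. Hey1 and Smad6 were under the level limit.

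Pdgfrb (Entrez gene 18596), the receptor for PDGF-BB, was the member called lower. It had an intensity of 2.91 with E47-ER and 6.56 with bHLH-ER, 2.23-fold lower, with both values above the level limit. Its log2 difference of -1.16 was the 11th lowest of 5563, and 1 of the 500 genes nearest in level was as low (robust SD 0.26, with 0.4% of them 2-fold lower). The fibroblast and pericyte markers are often expressed together with Pdgfrb. Most of their sums given above came from 2 genes: Sparc, at 4.00 with E47-ER and 3.55 with bHLH-ER, and Tagln, at 1.51 with E47-ER and 1.55 with bHLH-ER. The other markers with a named probe, Rgs5 and Dcn among them, were under the level limit on both arrays. The cause of the lower Pdgfrb value was not tested.

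Pdgfra (Entrez gene 18595), the receptor that binds the PDGF A chain, was at 0.196 with E47-ER and 0.511 with bHLH-ER, both under the level limit. The log2 difference of -1.37 had the same sign as that of Pdgfrb. Of the 500 genes nearest in level 2 were as low, and 1.8% were 2-fold lower, with a robust SD of 0.34. With 0.5 added before log2 the difference was -0.53. Pdgfra was left uncalled because of its level.

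**Figure D2:**
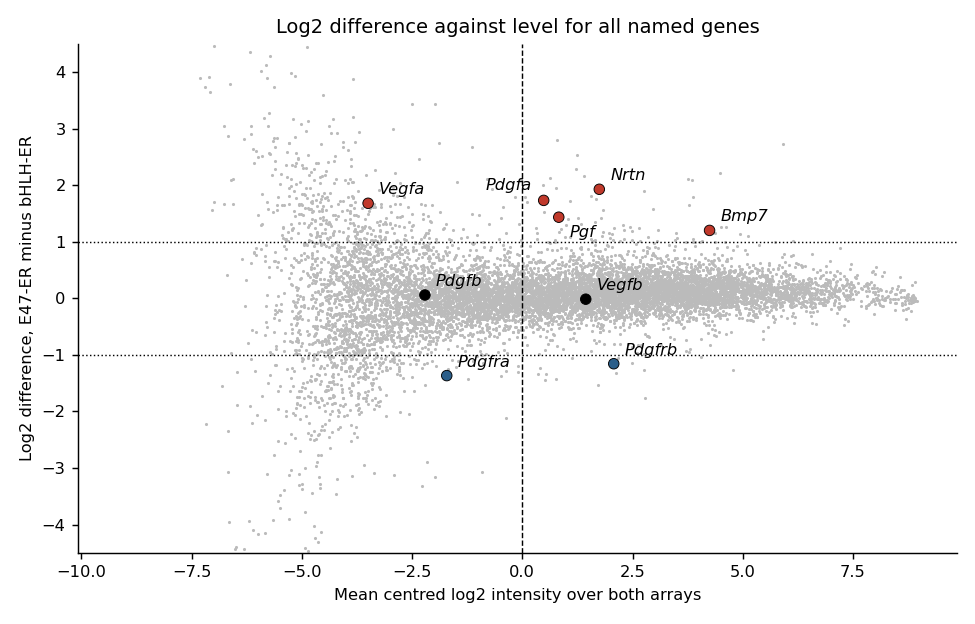
Log2 difference (E47-ER minus bHLH-ER, y axis) against mean centred log2 intensity over both arrays (x axis) for named genes (grey), with the set in red (2-fold higher), blue (2-fold lower) or black (within 2-fold). Dotted lines mark 2-fold and the dashed line the level limit, and 31 dim genes beyond 4.5 on the y axis are not drawn; Nrtn, Pdgfa, Pgf and Bmp7 stand above the cloud of measured genes and Pdgfrb below it, while Vegfa and Pdgfra lie left of the limit, and the cloud around Vegfa is wide.

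The measured genes of these systems were also counted by role. Of the 6 measured ligand genes, the members and Pdgfc, 5 had a log2 difference above 0 and 4 were 2-fold higher. Pdgfa, among the 4, counted as measured through its E47-ER value. Over all measured genes, 66.7% were above 0, 1.35% were 2-fold higher and 0.27% were 2-fold lower. Of the 7 measured receptor genes, 3 were above 0, none was 2-fold higher and Pdgfrb was 2-fold lower. The other 6 receptor genes lay between -0.43 and 0.24, with a median of -0.01, beside the median of 0.11 over all measured genes. The difference between these counts rests on the members, which were chosen for their differences: without them, 1 ligand gene was left.

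Genes that relay signals from receptor tyrosine kinases were within 2-fold. Over all measured genes 1.35% were 2-fold higher and 0.27% lower, so a list this short often holds none. Of 16 measured genes, 11 were above 0 and the median was 0.08. The phosphoinositide 3-kinase subunit gene Pik3r2 had the largest log2 difference, 0.94, with 4.52 with E47-ER and 2.38 with bHLH-ER. The Src family kinase gene Fyn followed at 0.60, and Spry1, an inhibitor of this signalling that it also induces, stood at 0.42. Grb2 (0.08), Akt1 (0.05) and Shc1 (-0.03) were nearly equal on both arrays.

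The hypoxia response list, chosen for Vegfa, held 10 measured genes with a median of -0.05, of which 4 were above 0 and none passed 2-fold. At the shares given for the relay genes, a list this short also often holds none. Ndrg1 had the largest log2 difference, 0.87, at 2.08 with E47-ER and 1.15 with bHLH-ER. Hif1a, which encodes the regulated HIF1 subunit, stood at 0.31. The glycolytic target genes Ldha (-0.36) and Pgk1 (-0.32) had negative differences.

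**Figure D3:**
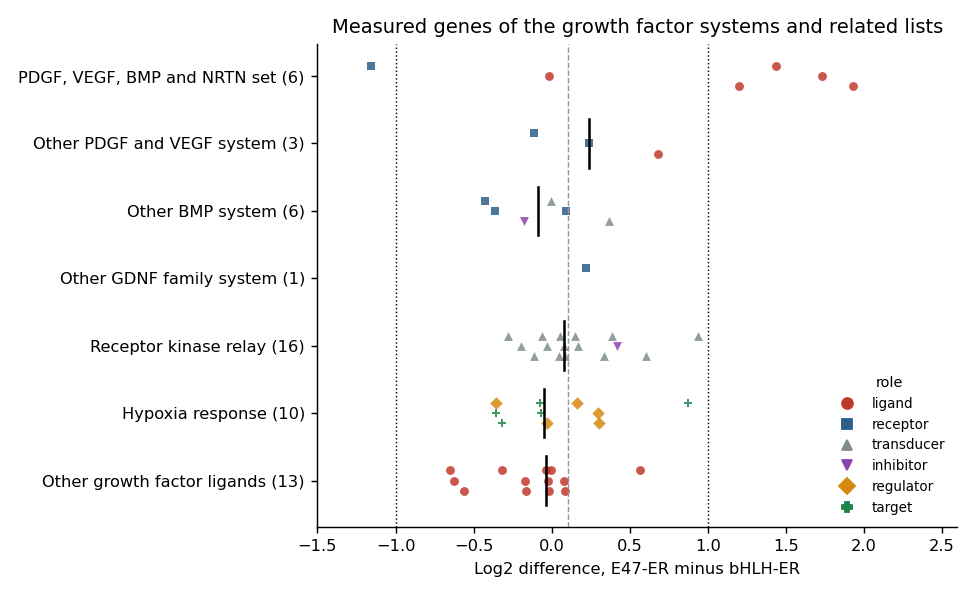
Log2 difference (E47-ER minus bHLH-ER, x axis) of each measured gene, in rows by list with the number measured in parentheses and symbols by role, for 1 array per construct. Black bars are list medians (lists of at least 3, not drawn for the set itself). Dotted lines mark 2-fold and the grey dashed line the median of all measured genes, 0.11. The other growth factor ligands were listed after the differences of the set were known. The genes drawn past 2-fold are those of the PDGF, VEGF, BMP and NRTN set, which was chosen with these differences in view. Its genes are not in the other rows. Over all measured genes 1.35% were 2-fold higher and 0.27% lower, so a short row often holds none. Lists not drawn here also hold genes past 2-fold, Id2 of the BMP response and Ptcra and Rag1 of the T lineage markers.

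The measured genes with the most similar pair of levels were found as the 3 nearest on the plane of the centred log2 intensities, which rests on 2 arrays and says nothing of function. For Nrtn these were the integrin gene Itga6 (6.003 with E47-ER and 1.80 with bHLH-ER), the metalloelastase gene Mmp12 (5.73 with E47-ER and 1.64 with bHLH-ER) and the transcription factor gene Ets2 (6.35 with E47-ER and 2.16 with bHLH-ER). For Pdgfa they were H2-M3, Hspb3 and Socs3, with log2 differences of 1.52, 2.01 and 2.14. For Pgf they were Asb17, Epb41l4a and Litaf, with 1.23, 1.17 and 1.30. Bmp7 lay nearest to the cathepsin gene Ctsl (1.16), Svil (0.99) and Stambpl1 (1.01). Pdgfrb lay nearest to Slc46a3 (-1.33), Cd160 (-1.06) and Frrs1 (-0.81).

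The calls were compared under other scalings, since the measured genes as a whole lay above 0. With the arrays' 75th percentiles set equal, the median of the measured genes moved to -0.002. Nrtn then had a log2 difference of 1.82, Pdgfa of 1.63, Pgf of 1.33, Bmp7 of 1.09 and Pdgfrb of -1.26. Over the setting used here and the 5 alternatives that can change the value of a gene with 1 probe (4 scalings and the 0.5 offset), the folds ranged from 3.19 to 3.81 for Nrtn, from 2.43 to 3.33 for Pdgfa, from 2.18 to 2.71 for Pgf, from 2.12 to 2.30 for Bmp7 and from 2.05 to 2.40 for Pdgfrb. These 5 genes were past 2-fold in each of them, with Bmp7 and Pdgfrb close to that limit at their lowest. Vegfb stayed between -0.12 and -0.01 on the log2 scale.

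**Figure D4:**
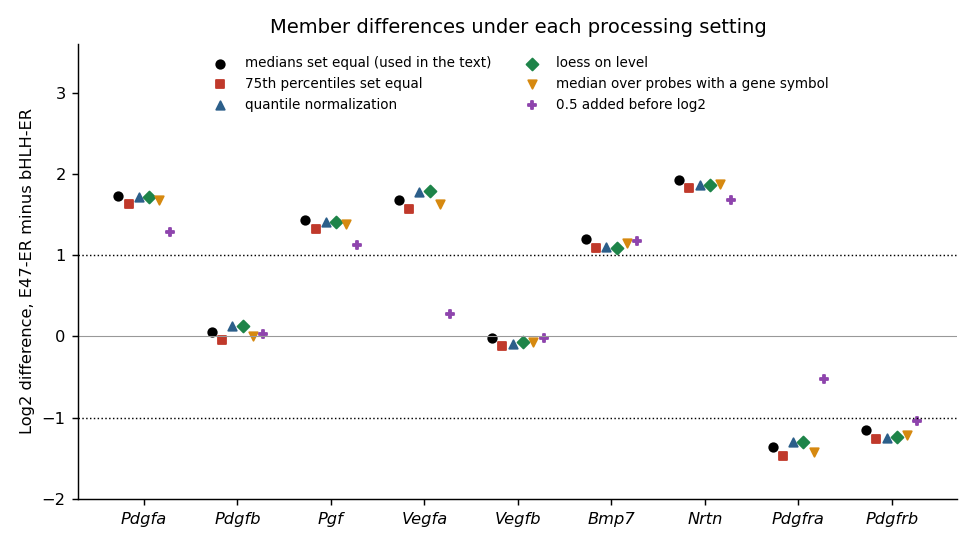
Log2 difference (E47-ER minus bHLH-ER, y axis) of each gene under the setting used in the text (black) and 5 other ways of scaling the arrays or treating dim values; dotted lines mark 2-fold. Nrtn, Pdgfa, Pgf, Bmp7 and Pdgfrb stay past 2-fold, whereas Vegfa and Pdgfra move to 0.28 and -0.53 when 0.5 is added before log2.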

How the data were processed

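RNA of each construct was measured on 1 single-colour array. The deposited table gives each of 20289 probes an intensity per array. These intensities, as the authors deposited them, are linear, with medians of 0.939 on the E47-ER array and 0.950 on the bHLH-ER array. The minima are negative, -0.0609 on the E47-ER array and -0.0829 on the bHLH-ER array, so a background was subtracted before deposit. For the method of subtraction, any scaling, the scanner and the genome build, the sources used here give no statement. Detection calls and control-spot marks were not used here. The number of arrays limits the precision.

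Probes missing or not positive on either array (668) were left out, each array's log2 values were centred on their median, and probes of a gene were averaged. Symbols came from the platform annotation through Entrez gene in RefSeq (GRCm38.p6): 10349 probes have 1 symbol, none has several and 9940 are unnamed here. Promoter windows are RefSeq's, for 6 of the 9 genes. The source used holds none for Pdgfb and Bmp7. Member windows on chromosome 18, where Pdgfrb lies, were left out of the search, so the member called lower has none here. The members and lists were chosen with earlier results of these data known. Named genes are the members, up to 3 genes per list and direction past 2-fold or else the one with the largest difference, and the 3 nearest neighbours of each called member; further examples were picked with their values in view. The scripts were tested on simulated data. Alternatives were other scalings, level filters, a 0.5 offset and the brightest probe per gene. Python 3.11.15, pandas 2.3.3 and statsmodels 0.14.6 were used.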

Additional observations from a re-analysis of the deposited data

How the results depend on the processing

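The differences of Nrtn, Pdgfa, Pgf, Bmp7, Pdgfrb, Vegfb and Pdgfb kept their side of 2-fold under the 5 alternatives that can change them (the level filters and the choice of probe cannot change the difference of a gene with 1 probe), while with 0.5 added before log2 Pdgfra (-0.53) and Vegfa (0.28) moved inside 2-fold, as an offset shrinks dim ratios. The level filter changed which genes were counted. At the 25th percentile, 2 members were lower (Pdgfra joined Pdgfrb) and 1 BMP system gene was lower (Acvr2b). At the 75th percentile 1 member was left, Bmp7, so 1 was higher and 0 were lower, and the PDGF and VEGF system median became 0.68, the value of Pdgfc. With no level filter 5 members were higher (Vegfa joined) and 2 were lower, the PDGF and VEGF system had a median of -0.035 with 1 gene higher and 1 lower, the BMP system had 2 lower, the GDNF family 1 lower, the receptor kinase relay 1 higher and 1 lower, the hypoxia list 1 lower and the BMP response list 2 lower. The counts over all measured genes were 75 higher and 15 lower with medians set equal, 52 and 24 with 75th percentiles set equal, and 496 and 420 of 9942 with no level filter. No alternative leaves out an array, since each construct has 1. No paired analysis was possible because each construct has 1 array.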

Other observations

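A list of 79 symbols of other growth factor ligand genes, which includes Gdf9, a relative of the BMP genes, had no measured gene past 2-fold. Ctgf and Cyr61 in it are older symbols of Ccn2 and Ccn1, which it also holds. Few of its genes were measured, and over all measured genes 1.35% were 2-fold higher and 0.27% lower, so no call is a usual outcome. The list was drawn up after the results of the set were known, and 54 of its genes had a named probe and 13 were measured. Among the 13, 3 were above 0, and the median log2 difference was -0.03, beside 0.11 over all measured genes. Midkine (Mdk), a heparin-binding growth factor, was the highest at 0.56, with 3.17 on the E47-ER array and 2.17 on the bHLH-ER array. The transforming growth factor beta genes stood at 0.08 for Tgfb1 and -0.56 for Tgfb2, the fibroblast growth factor genes at -0.62 for Fgf3, -0.17 for Fgf11 and -0.32 for Fgf18, and the neuregulin gene Nrg4 was the lowest at -0.65, with 1.36 with E47-ER and 2.16 with bHLH-ER.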
